A study of Homo sapiens with 6 samples.

Results

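The 10 genes described here are CXCL1, CXCL2, CXCL3 and CXCL8, which encode CXC chemokines, and TNFAIP3, NFKBIA, NFKB1, NFKB2, RELB and BIRC3, which encode subunits, inhibitors and regulators of the NF-κB pathway. They were taken by symbol from the 32029 genes listed in the count tables, and each symbol had a row. SW480, an established line of human colorectal adenocarcinoma labelled as wild type, was grown in 6 cultures, and RNA was sequenced 48 h after transfection with either of 2 kinds of siRNA. The 3 siControl cultures (siNC in the sample names) received a control siRNA and the 3 siZEB1 cultures an siRNA against ZEB1, a zinc finger transcription factor that represses epithelial genes. All cultures were of this single cell line, and the labels name no cytokine or other stimulus. The siRNA sequences are not given in the sources used here, so effects of the reagent other than on ZEB1 cannot be told apart from those of the loss of ZEB1.

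NF-κB is a family of dimeric transcription factors that are held in the cytoplasm by IκB proteins until signals from receptors for TNF, interleukin 1 or bacterial products lead to degradation of the inhibitor. Dimers that enter the nucleus bind κB sites and switch on chemokines, survival genes and the genes of their own inhibitors, so that the signal is limited by feedback. In the intestinal epithelium and in colorectal tumors, CXCL1, CXCL2, CXCL3 and CXCL8 attract neutrophils through the receptors CXCR1 and CXCR2.

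The κB sites near the transcript starts are shown first, because they are the feature by which these genes are known as NF-κB targets. RefSeq promoter windows on GRCh38.p14, each 250 bases before and 50 after an annotated start, were available for 9 of the 10 genes, in 12 windows, and RELB had no entry. Both strands were searched for the κB consensus and for the shorter pattern GGNNNTTCC, which lies inside most consensus matches. Of the 12 windows, 10 held a match, against 25.6% of the 35116 promoter windows of the genome with a match to either pattern. The genes were chosen as known NF-κB genes, so many matches were given in advance, and the difference was not tested. The windows are also not independent, since CXCL1, CXCL2 and CXCL3 are paralogs and NFKB1 and NFKB2 have more than a single window each. Each of the 9 genes held at least 1 match in at least 1 window. In the sequences below, read 5′ to 3′ on the strand of the gene, capitals mark the match.

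CXCL1, CXCL2 and CXCL3 share a match of the same letters, and CXCL8 has a match to the shorter pattern alone.
CXCL1, chr4:73869305-73869333: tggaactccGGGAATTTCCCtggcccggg
CXCL2, chr4:74099254-74099282: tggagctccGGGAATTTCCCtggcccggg
CXCL3, chr4:74038749-74038777: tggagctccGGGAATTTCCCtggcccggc
CXCL8, chr4:73740468-73740496: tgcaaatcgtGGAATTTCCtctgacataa

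The windows of the Rel subunit NFKB1, of the 2 inhibitors and of BIRC3 held these matches.
NFKB1, chr4:102501300-102501329: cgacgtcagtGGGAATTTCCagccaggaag
NFKBIA, chr14:35404811-35404840: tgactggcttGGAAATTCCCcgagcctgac
TNFAIP3, chr6:137867182-137867211: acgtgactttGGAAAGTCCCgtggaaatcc
TNFAIP3, chr6:137867194-137867223: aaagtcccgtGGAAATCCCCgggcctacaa
BIRC3, chr11:102317275-102317304: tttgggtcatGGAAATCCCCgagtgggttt
BIRC3, chr11:102317339-102317368: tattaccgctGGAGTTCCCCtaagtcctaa

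The consensus match of CXCL1 spans positions -79 to -69 relative to the start, that of CXCL3 the same positions and that of CXCL2 positions -78 to -68, so the site sits at nearly the same distance in all 3 genes. The match of CXCL8 lies at -91 to -83, and the consensus match of NFKBIA at -81 to -72. BIRC3 has its 2 matches farther out, at -199 to -190 and -135 to -126. The E-box CAGGTG, a sequence that ZEB1 is known to bind, was also searched on both strands. It was found in 2 of the 12 windows, at +22 to +27 in BIRC3 and at -25 to -20 of the second NFKB2 start, beside 20.6% of all windows that hold it. The bases just after this NFKB2 start match no GENCODE 29 transcript of the gene, unlike those of the other windows. The second NFKB1 window and the NFKB2 window farthest upstream held no κB match. The other 2 NFKB2 windows held κB matches that are not printed, like the further matches to the shorter pattern in CXCL1, CXCL2, CXCL3 and NFKBIA. The printed stretches of CXCL2, CXCL3, NFKB1 and TNFAIP3 overlap an exon of the same gene in GENCODE 29, which annotates transcripts that begin farther upstream or at the edge of the stretch, and those of CXCL1, CXCL8, NFKBIA and BIRC3 lie outside the annotated exons of their gene. These are matches of letters only, and no binding was measured.

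**Figure D1:**
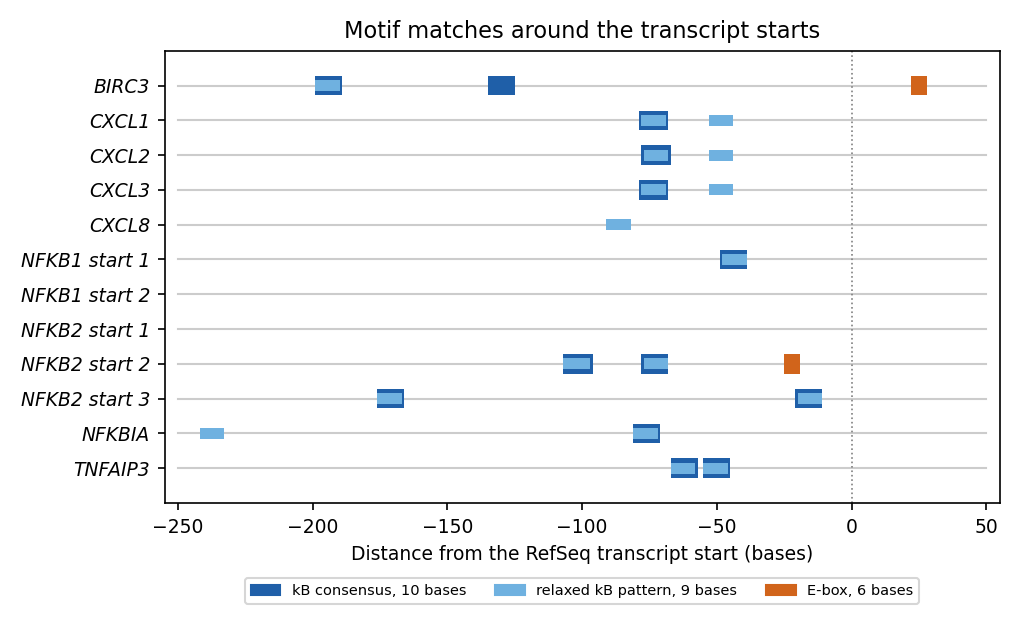
Positions of motif matches in the RefSeq windows of 9 genes, in bases from each transcript start (dotted line at 0); dark blue bars are matches to the κB consensus, light blue bars matches to the shorter κB pattern and orange bars matches to the E-box CAGGTG. Of the 12 windows, 10 hold a κB match, and the E-box occurs in BIRC3 and at the second NFKB2 start.

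The counts summed to between 19040636 and 22357633 reads per culture, so that 1 read equals 0.0447 to 0.053 CPM, the read count scaled to a common library size. Levels are given as CPM after TMM scaling, as mean ± SD over 3 cultures. Changes are the log2 ratio of siZEB1 to siControl with its standard error (SE) and the adjusted p of edgeR's quasi-likelihood test over the 14996 genes with enough reads. ZEB1 itself, the targeted gene, stood at 1247, 1276 and 908 reads (siControl) and 136, 132 and 162 reads (siZEB1), a log2 change of -2.85 (SE 0.11, edgeR adjusted p = 4.85e-12). Summed epithelial markers were at 4810 to 5440 CPM with siControl and 5330 to 6000 CPM with siZEB1, with KRT8 and KRT18 the most abundant. Of the 7 epithelial genes, 6 were tested, 3 rose and 1 fell, beside 19% higher and 21.2% lower among all tested genes. The log2 changes were 3.05 for EPCAM, 2.34 for VIL1, 1.62 for KRT19 and -1.30 for CDX2. KRT8 and KRT18, which make up most of the sum, were not called, and CDH17 was near 0. Summed leukocyte markers were at 0.714 to 1.04 CPM and 0.988 to 1.06 CPM, fibroblast markers at 9.64 to 10.9 CPM and 7.79 to 9.75 CPM, nearly all of it COL1A1, and endothelial markers at 2.02 to 2.72 CPM and 1.54 to 2.6 CPM. Of these markers, 5 of 6 leukocyte, 4 of 5 fibroblast and 2 of 4 endothelial genes had a row. CD3E, CD68, COL1A2, LUM and PDGFRA had 0 to 5 reads in every culture, and the part of these markers in the results was not tested. The biological coefficient of variation was 6.58%.

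The 4 chemokine genes were close to silent, and BIRC3 and NFKB1 were the 2 genes of the 10 that passed the test. BIRC3 fell by 1.14 on the log2 scale, NFKB1 rose by 19.0% and NFKB2, RELB, NFKBIA and TNFAIP3 did not pass the test. Of the 10 genes, 6 had enough reads to be tested, of which 1 was higher and 1 lower, beside 19% higher and 21.2% lower among all tested genes. In 3 of the 6 tested genes the cultures of the 2 groups were fully apart, against 49.5% of all tested genes. The counts of called and separated genes among the 6 thus lay near those of the genome. The median log2 change of the 6 genes was -0.0214, beside -0.00546 over all tested genes. In bulk RNA, fewer cells that express a gene and less RNA per cell cannot be told apart.

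**Figure D2:**
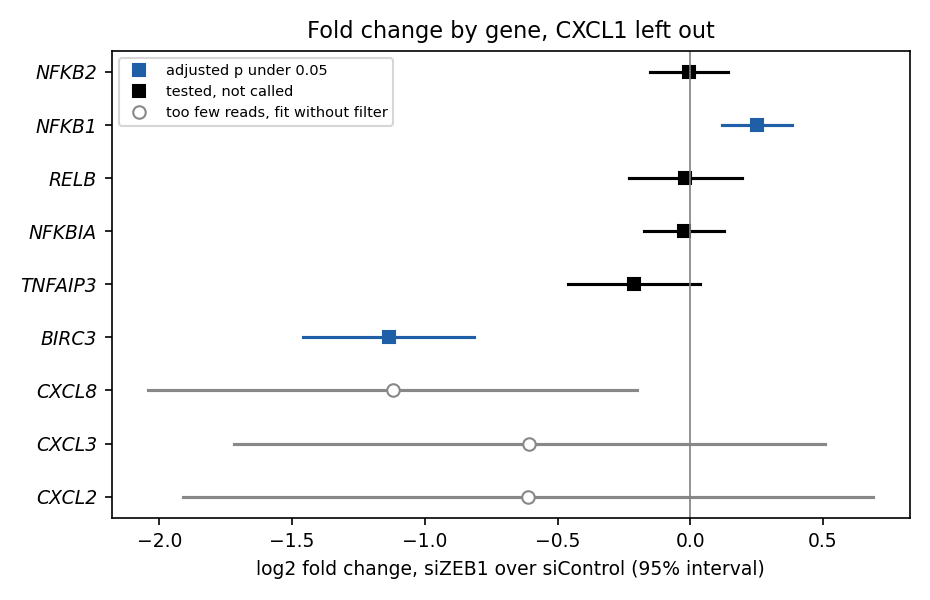
Log2 fold change of siZEB1 over siControl for 9 of the 10 genes with 95% intervals, where blue squares passed an adjusted p of 0.05 in edgeR's quasi-likelihood test, black squares were tested without passing, and open circles are CXCL8, CXCL3 and CXCL2 from a fit without a filter on low counts. The intervals of NFKB1 (0.12 to 0.38) and BIRC3 (-1.46 to -0.81) exclude 0, and those of NFKB2, RELB, NFKBIA and TNFAIP3 include it. The interval of CXCL8 (-2.04 to -0.20) also excludes 0, with an adjusted p of 0.0818 in that edgeR fit.

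Among the ligands, CXCL8 (ENSG00000169429, chr4:73740506-73743716 on GRCh38 with GENCODE 29, as for all gene positions here) encodes a chemokine that acts on CXCR1 and CXCR2. Its reads numbered 10, 23 and 13 in the siControl cultures, and 8, 7 and 4 were found in the siZEB1 cultures. All siZEB1 cultures lay below all siControl cultures, but the nearest of them were 2 reads apart. Scaled for depth, CXCL8 stood at 0.724 ± 0.282 CPM in siControl and 0.332 ± 0.111 CPM in siZEB1 cultures (SD, n = 3 each), around the 0.518 CPM that the filter on low counts asks for in at least 3 cultures. The summed CXCL8 reads were 46 (95% exact Poisson interval 33.7 to 61.4) and 19 (11.4 to 29.7), a ratio of siZEB1 over siControl of 0.454 after scaling (0.251 to 0.790), and these intervals cover counting error only.

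CXCL8 was too low to enter the main test. Fitted without the filter, its log2 change was -1.12 (SE 0.47, unadjusted p = 0.0170, adjusted p = 0.0818 in edgeR's quasi-likelihood test over 32029 genes). An exact permutation test over the 6 cultures, two-sided, gave p = 0.1 for a difference of -0.392 CPM, which is the smallest p that 3 against 3 cultures allow. With a culture left out, the filter asks for 2 cultures in place of 3, and CXCL8 then entered the test only through siControl replicates 2 and 3 (1.03 and 0.674 CPM), while all siZEB1 cultures lay below the limit at 0.424, 0.364 and 0.209 CPM. A gene kept by the group in which it is high had to differ, so the fits that follow give no support to the difference. Without siControl replicate 1, the log2 change was -1.36 (edgeR adjusted p = 0.0351). Without siZEB1 replicate 1, 2 or 3 CXCL8 passed the filter as well, with edgeR adjusted p of 0.0781, 0.104 and 0.184, and was not called.

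CXCL3 (ENSG00000163734, chr4:74036589-74038807) encodes a chemokine that binds CXCR2, and it had 14, 8 and 5 reads with siControl and 7, 6 and 3 reads with siZEB1. Its groups overlapped. The level was 0.425 ± 0.208 CPM and 0.280 ± 0.111 CPM (SD, n = 3 each), and the summed reads of 27 and 16 gave a ratio of 0.651 with an interval of 0.328 to 1.25 that includes equality. CXCL2 (ENSG00000081041, chr4:74097035-74099293), the near neighbour of CXCL3 on the same strand, had 9, 1 and 10 reads with siControl and 4, 5 and 3 reads with siZEB1. The single read in siControl replicate 2 put that culture below all siZEB1 cultures, so the groups overlapped. CXCL2 stood at 0.329 ± 0.251 CPM and 0.210 ± 0.0517 CPM (SD, n = 3 each), a ratio of summed reads of 0.660 (0.294 to 1.42).

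CXCL1 (ENSG00000163739, chr4:73869393-73871242), another CXCR2 ligand, was at the limit of detection. It had 1, 2 and 2 reads with siControl and 0, 2 and 0 reads with siZEB1, which is under 3 reads in each culture. The detection limit was set at 3 reads (0.134 to 0.159 CPM). Both groups of CXCL1 lie under it, so no fold is given. Without the filter, edgeR's quasi-likelihood test gave adjusted p of 0.658 for CXCL1, 0.603 for CXCL2 and 0.577 for CXCL3. These 3 genes are paralogs, and the read length is not given in the sources used here. Of the 50-base stretches of their transcripts, 12.5% in CXCL2, 6.01% in CXCL3 and 4.81% in CXCL1 also occur in another of the 3 genes, and none of those of CXCL8 occur in any other gene. For 100-base stretches the shares were 5.0%, 3.27% and 0.

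**Figure D3:**
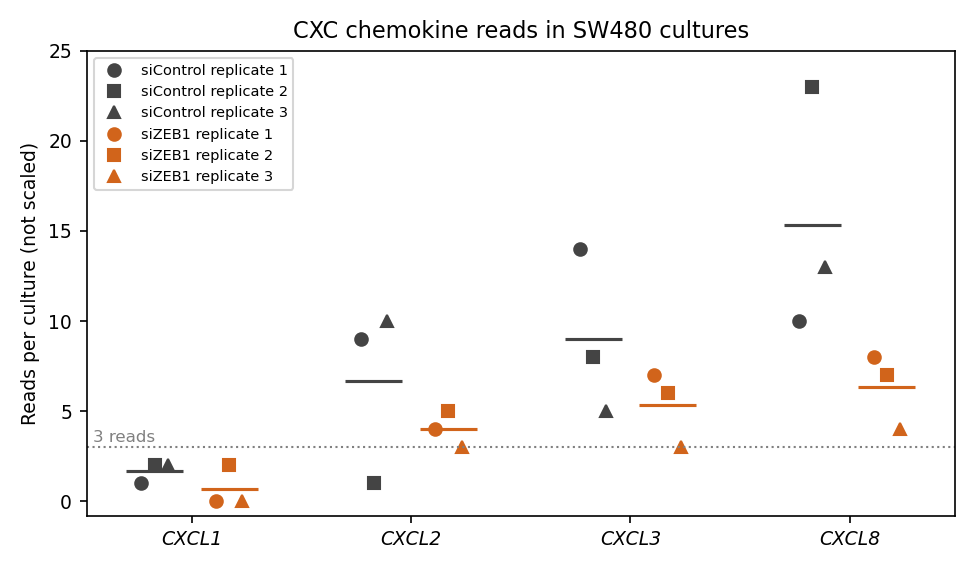
Reads of CXCL1, CXCL2, CXCL3 and CXCL8 in each culture, not scaled for depth, with siControl in grey and siZEB1 in orange, a symbol for each replicate number and a horizontal bar at the group mean; the dotted line marks 3 reads. Only CXCL8 shows groups that do not overlap, with 10 to 23 reads against 4 to 8, and CXCL1 lies under the line throughout.

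Summed, the 4 chemokine genes had 34, 34 and 30 reads with siControl and 19, 20 and 10 reads with siZEB1. Every siZEB1 culture was below every siControl culture, and CXCL8 gave 46 of the 98 reads with siControl and 19 of the 49 reads with siZEB1. The ratio after scaling was 0.550 with a counting interval of 0.382 to 0.782. The sum was formed with the reads already known, and no test is given for it.

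The neighbouring CXC gene CXCL5 had 0, 0 and 0 reads with siControl and 1, 0 and 2 reads with siZEB1, and CXCL6, PPBP and PF4 had no row. The receptors of these ligands were equally low: CXCR1 had 0, 2 and 0 reads with siControl and 0, 1 and 0 reads with siZEB1, and CXCR2 had 0, 0 and 1 reads and 0, 6 and 6 reads. Both CXCR2 cultures with 6 reads were siZEB1 cultures, and the remaining siZEB1 culture had none, so the groups overlapped. Of 17 other chemokines in the list, 12 had a row and 4 could be tested. At an adjusted p under 0.05, 0 of the 4 passed edgeR's quasi-likelihood test, beside 19% higher and 21.2% lower among all tested genes. Of the 4, 0 passed DESeq2 and 1 had an unadjusted p under 0.05 in edgeR. That gene, CX3CL1, had a log2 change of 0.28 (edgeR adjusted p = 0.0501) and passed in 4 of the 12 alternatives, which were median-of-ratios size factors (adjusted p = 0.0452), no filter (0.0475), without siControl replicate 3 (0.00468) and without siZEB1 replicate 2 (0.0251). Of 10 chemokine receptors, 7 had a row and 3 were tested. ACKR3, a scavenging receptor, rose by 0.35 on the log2 scale (edgeR adjusted p = 0.00731). CXCR6, the receptor of CXCL16, fell by 0.80 (edgeR adjusted p = 0.0101), and lost the call without siControl replicate 2 (-0.66, adjusted p = 0.0667) or siZEB1 replicate 1 (-0.66, adjusted p = 0.0552).

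Among the Rel subunits, NFKB1 (ENSG00000109320, chr4:102501329-102617302) encodes the precursor of a DNA-binding subunit of the canonical dimer, a precursor that also acts as an IκB protein. NFKB1 stood at 76.8, 78.1 and 74.4 CPM in the siControl cultures and at 91.4, 92.4 and 89.0 CPM in the siZEB1 cultures. The groups were apart and the spread within each was small. NFKB1 rose by 0.25 on the log2 scale (SE 0.063, interval 0.12 to 0.38, edgeR adjusted p = 0.00405), from 76.4 ± 1.90 to 90.9 ± 1.77 CPM (SD, n = 3 each). The rise was below 1.5-fold.

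NFKB2 (ENSG00000077150, chr10:102394110-102402529) encodes the precursor of the subunit used by the noncanonical pathway. NFKB2 levels were 138, 150 and 161 CPM with siControl and 153, 156 and 139 CPM with siZEB1. The siZEB1 cultures fell within the siControl range, and the log2 change was -0.0036 (SE 0.070, interval -0.15 to 0.14, edgeR adjusted p = 0.973). Within each culture, NFKB2 CPM was 1.79, 1.92 and 2.17 times NFKB1 CPM with siControl and 1.68, 1.69 and 1.56 times with siZEB1. The ratio was lower in each siZEB1 culture, which describes unequal levels of both genes and was not tested.

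RELB (ENSG00000104856, chr19:45001430-45038198) encodes the partner of the NFKB2 product. It had 399, 398 and 400 reads with siControl and 352, 406 and 320 reads with siZEB1, which is 18.8, 17.8 and 20.8 CPM against 18.6, 21.1 and 16.7 CPM. The highest and the lowest culture were both siZEB1, and the log2 change was -0.018 (SE 0.10, interval -0.23 to 0.19, edgeR adjusted p = 0.903).

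RELA and REL, the remaining Rel subunits, were listed beside the 10 genes. RELA, the transactivating partner of the NFKB1 product, stood at 125, 125 and 132 CPM with siControl and 116, 114 and 108 CPM with siZEB1, groups that did not overlap. The log2 change of RELA was -0.17 (SE 0.062, edgeR adjusted p = 0.0353), and this call was lost in 7 of the 12 alternatives, with adjusted p between 0.0248 and 0.147 over all of them and the same sign in each. Left out one at a time, siControl replicates 2 and 3 and siZEB1 replicates 1, 2 and 3 gave edgeR adjusted p of 0.0747, 0.0723, 0.0695, 0.0769 and 0.122. REL, a subunit best known from lymphocytes, changed by -0.66 (edgeR adjusted p = 0.0206) with overlapping groups of 6.63, 6.61 and 3.99 CPM against 4.03, 2.50 and 4.44 CPM. The REL call was lost without siControl replicate 1 (-0.55, adjusted p = 0.0770), siControl replicate 2 (-0.55, adjusted p = 0.0936) or siZEB1 replicate 2 (-0.45, adjusted p = 0.110), and 43.3% of its exonic bases overlap another gene on the same strand, so its counts are uncertain.

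Of the inhibitors, NFKBIA (ENSG00000100906, chr14:35401511-35404749) encodes IκBα, the inhibitor that is rapidly degraded on stimulation and then made anew as an NF-κB target. NFKBIA stood at 52.0, 51.1 and 56.9 CPM with siControl and 50.4, 54.6 and 52.2 CPM with siZEB1. The groups overlapped almost fully. The log2 change was -0.024 (SE 0.071, interval -0.18 to 0.13, edgeR adjusted p = 0.815), from 53.3 ± 3.10 to 52.4 ± 2.12 CPM (SD, n = 3 each). Relative to NFKB1, NFKBIA was at 0.678, 0.654 and 0.764 with siControl and at 0.551, 0.591 and 0.587 with siZEB1, lower in each siZEB1 culture. NFKBIA itself was not called while NFKB1 rose, and the ratio was not tested.

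TNFAIP3 (ENSG00000118503, chr6:137867188-137883312) encodes a ubiquitin-editing enzyme that shuts off signalling from TNF and Toll-like receptors. It had 186, 203 and 172 reads with siControl and 153, 130 and 157 reads with siZEB1, or 8.75, 9.06 and 8.92 CPM and 8.10, 6.76 and 8.20 CPM. The siZEB1 cultures all lay below the siControl cultures, 2 of them by a small gap and replicate 2 by more. The log2 change was -0.21 (SE 0.12, interval -0.46 to 0.035, unadjusted p = 0.0872, edgeR adjusted p = 0.161), and over the 12 alternatives it ranged from -0.26 to -0.13 without passing the test.

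BIRC3 (ENSG00000023445, chr11:102317450-102339403) encodes a ubiquitin ligase of the inhibitor of apoptosis family that sits in TNF receptor complexes and restrains the noncanonical pathway. The siControl cultures held 175, 177 and 135 BIRC3 reads, whereas 59, 61 and 81 were counted in the siZEB1 cultures. Scaled for depth these were 8.23, 7.90 and 7.003 CPM against 3.13, 3.17 and 4.23 CPM, and the highest siZEB1 culture lay well below the lowest siControl culture. The mean fell by 54.5%, 7.71 ± 0.636 CPM becoming 3.51 ± 0.626 CPM (SD, n = 3 each), and the log2 change was -1.14 (SE 0.15, interval -1.46 to -0.81, edgeR adjusted p = 1.46e-05). It had the largest change of the 6 tested genes and kept its call in all 12 alternatives. Only 0.144% of the 50-base stretches of BIRC3 transcripts occur in another gene, its paralog BIRC2, whose own log2 change was 0.13 (edgeR adjusted p = 0.184). The share was 0.953% for NFKB2 and 0 for TNFAIP3, NFKBIA, NFKB1 and RELB.

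**Figure D4:**
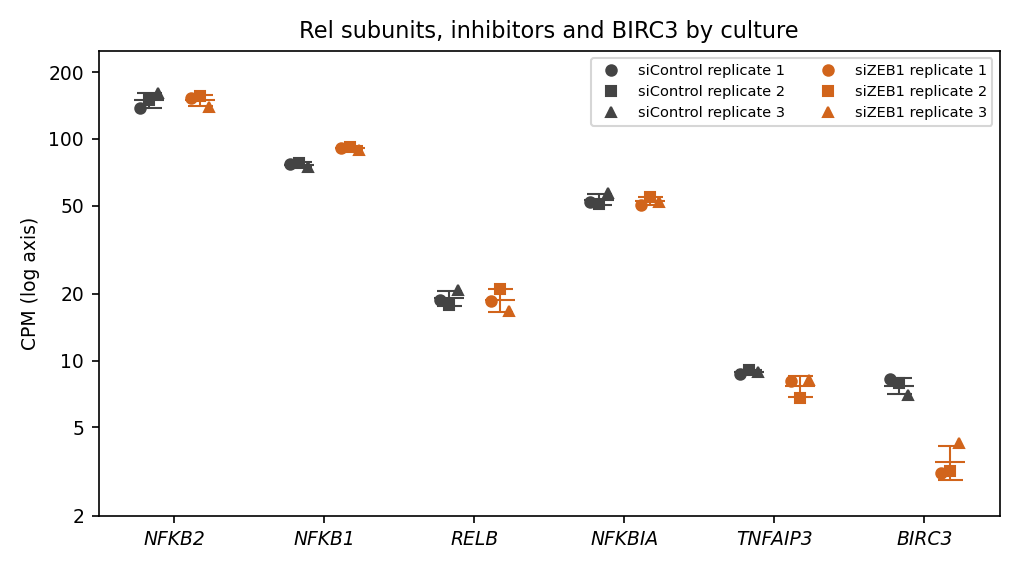
CPM on a log axis for the 6 tested genes in each culture, siControl in grey and siZEB1 in orange, with the mean and ± SD as horizontal bars. NFKB1 (74.4 to 78.1 against 89.0 to 92.4 CPM) and BIRC3 (7.003 to 8.23 against 3.13 to 4.23 CPM) show separate groups, TNFAIP3 a narrow gap, and NFKB2, NFKBIA and RELB overlap.

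To order the levels between genes, CPM was divided by exon length in kilobases (GENCODE 29). In siControl cultures NFKB2 was the highest of the 10 at 33.4 ± 2.64 CPM per kb, followed by NFKBIA at 22.5 ± 1.31, NFKB1 at 12.2 ± 0.304, RELB at 6.29 ± 0.499, TNFAIP3 at 1.76 ± 0.0315 and BIRC3 at 1.03 ± 0.0845 CPM per kb. The ranges of neighbours in this order were apart. The chemokines came last, with CXCL8 at 0.318 ± 0.124, CXCL2 at 0.219 ± 0.167, CXCL3 at 0.192 ± 0.0937 and CXCL1 at 0.0618 ± 0.0227 CPM per kb. The ranges of CXCL8, CXCL2 and CXCL3 overlapped one another, and that of CXCL1, which is under the detection limit given above, lay within that of CXCL2 and below that of CXCL3. With siZEB1 the levels were NFKB2 at 33.3, NFKBIA at 22.1, NFKB1 at 14.5, RELB at 6.2, TNFAIP3 at 1.52, BIRC3 at 0.467, CXCL8 at 0.146, CXCL2 at 0.140, CXCL3 at 0.126 and CXCL1 at 0.0268 CPM per kb. The first 6 genes kept their order and their ranges were apart, whereas the ranges of CXCL8, CXCL2 and CXCL3 overlapped one another and that of CXCL1 overlapped that of CXCL3. For comparison, RELA stood at 23.3 with siControl and 20.7 CPM per kb with siZEB1, and NFKBIB, another IκB gene, at 29.6 and 38.0 CPM per kb.

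Further genes of the pathway were read from lists by role. Of 143 listed genes, 132 had a row and 91 were tested, of which 20 rose (22%) and 27 fell (29.7%), with a median log2 change of -0.0936. These shares stand beside 19% and 21.2% of all tested genes.

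Closest to the 10 genes, the other Rel subunits and inhibitors had 7 tested genes. Of these, 1 rose (14.3%) and 3 fell (42.9%), beside 19% and 21.2% of all tested genes. NFKBIB rose by 0.36 (edgeR adjusted p = 0.00166), NFKBIE changed by -0.15 (edgeR adjusted p = 0.197), and BCL3, a nuclear IκB protein, fell by 0.49 (edgeR adjusted p = 0.0177), a call lost without siZEB1 replicate 3 (-0.33, adjusted p = 0.0927). Of 14 other tested feedback genes, 2 rose (14.3%) and 7 fell (50%), beside 19% and 21.2% of all tested genes. Their median was -0.161. The 2 that rose became 1 with the replicate block and without siControl replicate 1 or 3 or any siZEB1 culture. The 7 that fell became 5 with the replicate block and without siControl replicate 1, siZEB1 replicate 1 or siZEB1 replicate 2. They became 6 in DESeq2 and without siControl replicate 2, and 8 without siControl replicate 3. TNIP1 and TNIP2, which encode binding partners of the TNFAIP3 product, fell by 0.33 (edgeR adjusted p = 9.88e-04) and 0.43 (adjusted p = 5.40e-04). TNFAIP2, a TNF-induced gene, fell by 0.34 (edgeR adjusted p = 5.86e-04). TRAF1, a TNF receptor adaptor that binds the BIRC3 product, fell by 1.07 (edgeR adjusted p = 0.0181) on 35, 53 and 31 against 14, 9 and 28 reads. The TRAF1 call was lost without siControl replicate 2 (-0.87, adjusted p = 0.100), siZEB1 replicate 1 (-0.96, adjusted p = 0.0695) or siZEB1 replicate 2 (-0.77, adjusted p = 0.0875).

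Upstream, 4 of the inducing ligands were tested, of which 2 rose (50%) and 1 fell (25%), beside 19% and 21.2% of all tested genes. In DESeq2, 1 of the 4 rose and 0 fell. LTB, the membrane subunit of lymphotoxin and a ligand of the noncanonical pathway, had 27, 37 and 31 reads with siControl and 82, 104 and 73 reads with siZEB1, a log2 change of 1.58 (SE 0.20, edgeR adjusted p = 9.87e-06). LTA rose by 0.96 (edgeR adjusted p = 0.0336), which did not pass without siControl replicate 2 (0.69, adjusted p = 0.160), siControl replicate 3 (0.87, adjusted p = 0.0705), siZEB1 replicate 1 (1.04, adjusted p = 0.0538) or siZEB1 replicate 3 (0.78, adjusted p = 0.130). DESeq2 did not call LTA either (adjusted p = 0.0563). TNFSF15 fell by 0.46 (edgeR adjusted p = 0.0464), and leaving out any culture but siControl replicate 3 ended the call, with log2 changes of -0.51 to -0.33 and adjusted p of 0.0657 to 0.203. The TNFSF15 call was also lost in DESeq2 (adjusted p = 0.116), without the filter on low counts (edgeR adjusted p = 0.0679) and with the replicate block (0.0726). Among 12 tested receptors, 4 rose (33.3%) and 2 fell (16.7%), beside 19% and 21.2% of all tested genes. LTBR, the lymphotoxin beta receptor, rose by 0.55 (edgeR adjusted p = 3.65e-05), TNFRSF12A by 0.56 (adjusted p = 1.83e-06) and TNFRSF10B by 0.45 (adjusted p = 7.11e-06), and TNFRSF21 fell by 0.63 (adjusted p = 6.58e-06).

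Of 19 tested adaptors, 3 rose (15.8%) and 7 fell (36.8%), and of 11 kinases and their partners 2 rose (18.2%) and 3 fell (27.3%), beside 19% and 21.2% of all tested genes. Of the adaptors that rose, TRAF2 and CARD10 lost the call without siControl replicate 1 (edgeR adjusted p = 0.0568 and 0.0844), siControl replicate 2 (0.0579 and 0.0537) or siZEB1 replicate 2 (0.0676 and 0.0946), which left 1. Without siZEB1 replicate 2, MAP3K14 (edgeR adjusted p = 0.0946) and MAP3K8 both lost the call, which left 1 fallen kinase. The same 2 genes lost the call with the replicate block (edgeR adjusted p = 0.0569 for MAP3K14). NOD2, a sensor of bacterial peptidoglycan, dropped from 137, 139 and 96 reads per siControl culture to 30, 40 and 38 per siZEB1 culture, and its log2 change was -1.64 (SE 0.18, edgeR adjusted p = 1.54e-06). RIPK2, the kinase through which NOD2 signals, rose by 0.43 (edgeR adjusted p = 6.77e-04). MYD88 and TICAM1, the adaptors of Toll-like receptors, fell by 0.72 (edgeR adjusted p = 2.18e-06) and 0.48 (adjusted p = 0.00513). In the IκB kinase complex, IKBKG rose by 0.37 (edgeR adjusted p = 0.00322) and CHUK by 0.27 (adjusted p = 0.00850). IKBKB, the remaining core subunit, was at -0.13 (edgeR adjusted p = 0.219) with all siZEB1 cultures below all siControl cultures. The related kinase gene IKBKE fell by 0.50 (adjusted p = 1.57e-04). MAP3K8, whose product is bound by the NFKB1 precursor, fell by 0.25 (edgeR adjusted p = 0.0358), a call lost without siControl replicate 1 (-0.20, adjusted p = 0.127), siZEB1 replicate 2 (-0.26, adjusted p = 0.0782) or siZEB1 replicate 3 (-0.20, adjusted p = 0.131). The MAP3K8 call was also lost in DESeq2 (adjusted p = 0.0675) and with the replicate block (edgeR adjusted p = 0.0795).

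Of 17 other known NF-κB targets tested, 5 rose (29.4%) and 3 fell (17.6%), beside 19% and 21.2% of all tested genes. The 5 became 2 without siControl replicate 2, when IER3, SOD2 and PLAU lost the call (edgeR adjusted p = 0.0940, 0.129 and 0.0870), and 3 without siControl replicate 1, siZEB1 replicate 1 or siZEB1 replicate 2. The replicate block and the fit without a filter on low counts also left 3, and DESeq2 left 4. ICAM1, the leukocyte adhesion molecule, was at 124, 128 and 125 CPM with siControl and 58.9, 57.1 and 57.7 CPM with siZEB1, a log2 change of -1.12 (SE 0.062, edgeR adjusted p = 5.23e-10). SDC4, a cell-surface proteoglycan, changed as much the other way, from 101, 95.8 and 97.7 CPM to 207, 205 and 203 CPM (1.06, SE 0.058, edgeR adjusted p = 4.43e-10). IRF1 fell by 0.77 (edgeR adjusted p = 9.81e-06) and BCL2L1, a survival gene, rose by 0.51 (adjusted p = 6.42e-06). Genes on the opposite strand cover 43.0% of the exonic bases of BCL2L1, 31.1% of PLAU, 26.5% of IER3, 23.6% of ICAM1 and 22.0% of IRF1. Since the use of strand in counting is not given in the sources used here, their counts are uncertain to that extent. For the 10 genes the overlap was 0 except for TNFAIP3, at 1.88%.

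**Figure D5:**
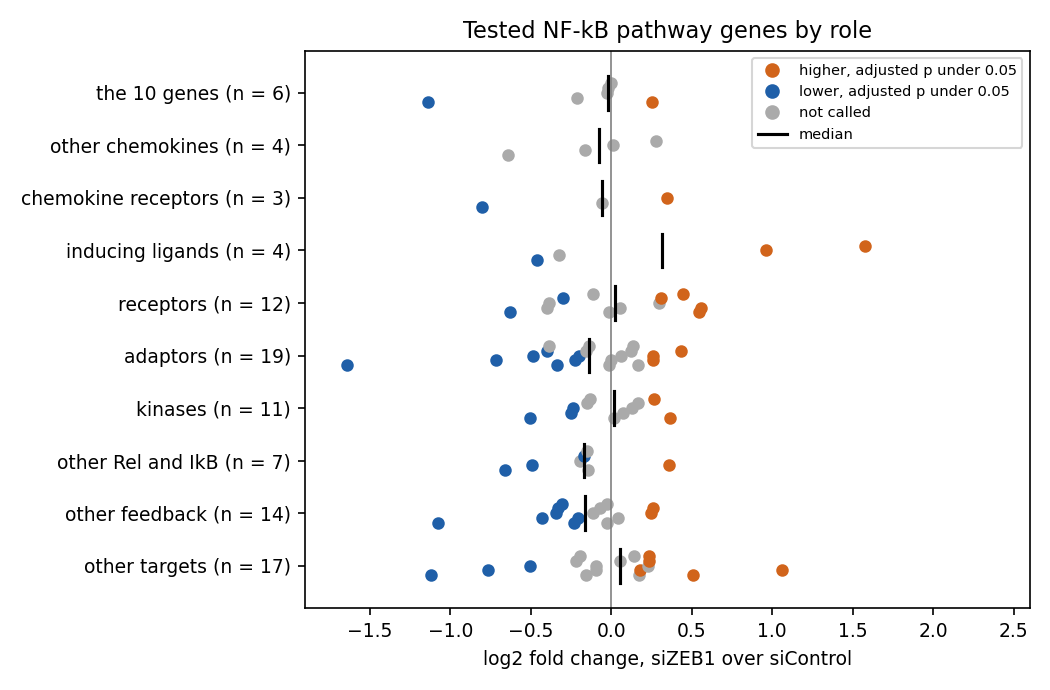
Log2 fold change of siZEB1 over siControl for each tested gene of the pathway lists, in rows by role, with genes higher at an adjusted p under 0.05 in orange, lower in blue, the others in grey and the median of each row as a black bar. The lowest points are NOD2 (-1.64), BIRC3 (-1.14) and ICAM1 (-1.12), the highest LTB (1.58), and the medians lie between -0.172 and 0.318.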

How the data were processed

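Per the labels, total RNA of SW480 cells was extracted with Trizol and sequenced on an Illumina instrument, and the study describes the samples of a group as biological replicates. The authors deposited whole-number counts of reads per Ensembl gene for each culture, not normalized. The submitters' processing notes name Trimmomatic, HISAT2, SAMtools, featureCounts and hg38, while versions, the annotation and the use of strand are not given in the sources used here. From these counts, genes were kept by filterByExpr (minimum count 10), scaled by TMM and tested with edgeR 4.0.16 (R 4.3.3; quasi-likelihood, two-sided, group only), with Benjamini-Hochberg adjustment over 14996 genes. Scripts were tested on simulated data. Weak genes were given as raw reads with exact Poisson intervals at 95%. Of 32029 identifiers, 31059 matched GENCODE 29. The 10 genes and the lists were chosen with earlier results of these data known. Named genes were the 10, ZEB1, RELA, up to 4 called genes per role with the largest change, REL, IKBKG, CHUK, NFKBIB, NFKBIE, CXCR1, CXCR2, the CXC genes near the 10, and the 3 genes most like CXCL8 and NFKBIA. BIRC2 was added for its shared sequence, and CCL20, CX3CL1, IKBKB, TRAF2, CARD10, MAP3K14, IER3, SOD2 and PLAU after their values were seen. Alternatives were DESeq2 1.42.0, other size factors, other filters, a replicate block, each culture left out and another call rule. The largest chi-square over degrees of freedom between replicates was 9.53 and the smallest 2.26, so no library was a copy of another.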

Additional observations from a re-analysis of the deposited data

How the results depend on the processing

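For the 2 called genes of the 10 and for TNFAIP3 the sign was the same in all 12 alternatives, and NFKB1 (0.23 to 0.27) and BIRC3 (-1.29 to -1.06) passed the test in each. NFKB2, RELB and NFKBIA stayed within 0.11 of 0 on the log2 scale, changed sign between alternatives and were never called. With a fold above 1.5 and an unadjusted p under 0.05 as the call rule, 1081 genes were higher and 1402 lower, 0 and 1 of the 10 genes, and 3 and 8 of the other listed pathway genes, in place of 2849 and 3186, 1 and 1, and 20 and 27. With each culture left out in turn, 2305 to 2928 genes were higher and 2637 to 3311 lower, 14 to 18 and 20 to 28 of the other pathway genes, and 1 to 2 of the 10 genes were lower, the second being CXCL8 without siControl replicate 1, a gene that passed the filter there only through the siControl cultures, where it is high. The replicate numbers did not pair the samples (correlations of same-numbered deviations of -0.0517, -0.0883 and -0.200), and with the replicate block 2289 genes were higher and 2679 lower, 16 and 20 of the other pathway genes, and 1 and 1 of the 10. Depth limits the chemokines, with 0 to 23 reads per culture. The counting intervals of the ratio were 0.294 to 1.42 for CXCL2 and 0.328 to 1.25 for CXCL3. For CXCL1 no ratio is given.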

Other observations

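CCL20, a chemokine for dendritic cells and lymphocytes and a known NF-κB target, had 4, 6 and 5 reads with siControl and 0, 0 and 1 reads with siZEB1. The groups did not overlap. The gene was picked after its values were seen, and at 15 against 1 reads the ratio after scaling was 0.0733 with a counting interval of 0.00174 to 0.476.

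Across the 6 cultures, the tested genes whose log2 CPM followed CXCL8 most closely were MTERF4 (Pearson r = 0.987), HELZ2 (0.985) and NDUFA10 (0.981), and those closest to NFKBIA were NAT9 (0.979), C12orf65 (0.977) and IGBP1-AS1 (0.974). These are the highest values among 14996 genes over 6 points that share 2 groups, and they are given as a description only.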
